A study of Saccharomyces cerevisiae and Saccharomyces paradoxus with 173 samples.

Results

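The genes described here are 42 yeast genes that encode RNA polymerase I and the factors that assemble ribosomes, out of 6172 genes in the deposited array table. They were chosen by name and matched to systematic ORF identifiers, and all 42 were found. By role they comprise 7 genes of RNA polymerase I and its initiation factor, 5 genes of small nucleolar ribonucleoprotein (snoRNP) and other nucleolar proteins, 10 genes of the small subunit processome, and 20 genes of large subunit assembly factors.

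RNA polymerase I transcribes the long precursor of the ribosomal RNAs in the nucleolus. SnoRNPs modify that precursor, the small subunit processome folds and cuts its first part, and a separate set of helicases, GTPases and scaffold proteins matures the large subunit. In budding yeast the genes for these factors, often called the ribosome biogenesis regulon, are known to be transcribed together in growing cells and to be shut down together under stress or starvation, and ribosomal protein genes form a separate regulon.

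The study followed 10 natural yeast strains after release from a pheromone arrest. Of these, 9 were Saccharomyces cerevisiae (YPS183, YPS2055, YPS2060, YPS2066, YPS2067, YPS2073, YPS2079, YPS3060 and YPS3137) and YPS3395 was S. paradoxus. Cultures grown at 30 °C in SD, a minimal glucose medium, were arrested in late G1 with 4 µM alpha factor for about 75 min, washed in cold medium without glucose, and released into fresh SD at 18 °C, so pheromone removal, the wash, new medium and the lower temperature came together and cannot be told apart. Samples ran over 18 times, at 0 min and then from 24 to 345 min after release, with 1 culture and 1 sample per strain and time. YPS2060 had 15 samples, YPS2067 and YPS3137 had 16 each, and the other strains had 18 each. Each sample was hybridised on 2-colour arrays against 1 reference RNA, from unsynchronised YPS183 grown at 30 °C in rich medium (YPD). Values are log ratios to that reference. Their base is not stated and is taken as 2, and their direction is taken as the likely one, sample over reference. Read that way, RNR1, a ribonucleotide reductase gene of the G1/S transition, rose by 2.05 at 24 min against 0 min (limma, adjusted p = 0.00569, higher in 10 of 10 strains), and CLB2, the mitotic cyclin gene, was higher by 1.26 at 251 to 345 min than at 24 to 63 min (limma, adjusted p = 0.0021).

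Between 1 and 5 arrays lay behind a sample, and 8 samples rested on 1 array. Arrays came from prints of 2005, 2006 and 2007, and 40 samples used some arrays of the older prints: 17 of 18 in YPS2073, 5 in YPS183, and 9 each in YPS3060 and YPS3137. In YPS3060 and YPS3137 these 9 samples were those at 0, 48, 87, 135, 176, 218, 251, 284 and 325 min, here called set A, while the alternate times (24, 63, 111, 152, 194, 227, 260, 301 and 345 min, set B) used 2007 prints. In 6 strains (YPS2055, YPS2060, YPS2066, YPS2067, YPS2079 and YPS3395) every sample used 2007 prints only. The pheromone-induced gene AGA1, which encodes an agglutinin anchor, stood at −1.16 in YPS2073 and −2.21 in YPS3060 at 0 min, against 0.14 to 3.05 in the other strains. At 0 min RNR1 stood at −0.11 in YPS2073, −0.18 in YPS3060 and −0.35 in YPS3137, against −2.69 to −1.30 in the rest. CLB2 stood at 0.23, 0.05 and 0.15 in the same strains, against −1.33 to −0.06. The G1/S gene CLN2 stood at 0.08, −0.17 and −0.46 in them, against −1.60 to −0.49. The S phase gene HTA1 stood at 1.06, 1.18 and 0.59, against −2.72 to 0.57. FUS1, a marker of arrest, stood at −0.22, −0.74 and 0.07, against 0.07 to 0.99. POL30, another G1/S gene, was higher in YPS2073 (0.86), with YPS3060 (0.04) and YPS3137 (−0.17) inside the −1.17 to 0.11 of the rest. FIG1, another marker of arrest, was lower in YPS3060 (−0.48), with YPS2073 (−0.06) and YPS3137 (0.98) inside the −0.06 to 3.48 of the rest. How far each culture was arrested at 0 min was not tested. Probe intensities were not analysed here, so a steady value cannot be told from a probe with little signal.

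The first question was how these genes changed on release. At 24 min against 0 min, 13 of the 42 genes rose and 0 fell (limma, differences taken within strain, n = 10 strains, Benjamini-Hochberg adjusted p under 0.05), where 2.45% of all genes rose and 1.72% fell. In these bulk samples, a change in the share of cells at a given stage and a change in RNA per cell cannot be told apart. The estimate was above 0 for 41 of the 42, with a median of 0.44, against −0.02 for all 6172 genes. At an unadjusted p under 0.05 the counts were 33 higher and 0 lower. By role, 3 of 7 polymerase genes, 1 of 5 snoRNP genes, 2 of 10 processome genes and 7 of 20 large subunit genes rose. The rise was uneven within each of these groups, and for every one of the 42 genes the 24 min and 0 min values overlapped across strains. Of the 42, 7 were higher in 10 of 10 strains, where 1.36% of all genes were, and 22 were higher in 9 or 10.

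**Figure D1:**
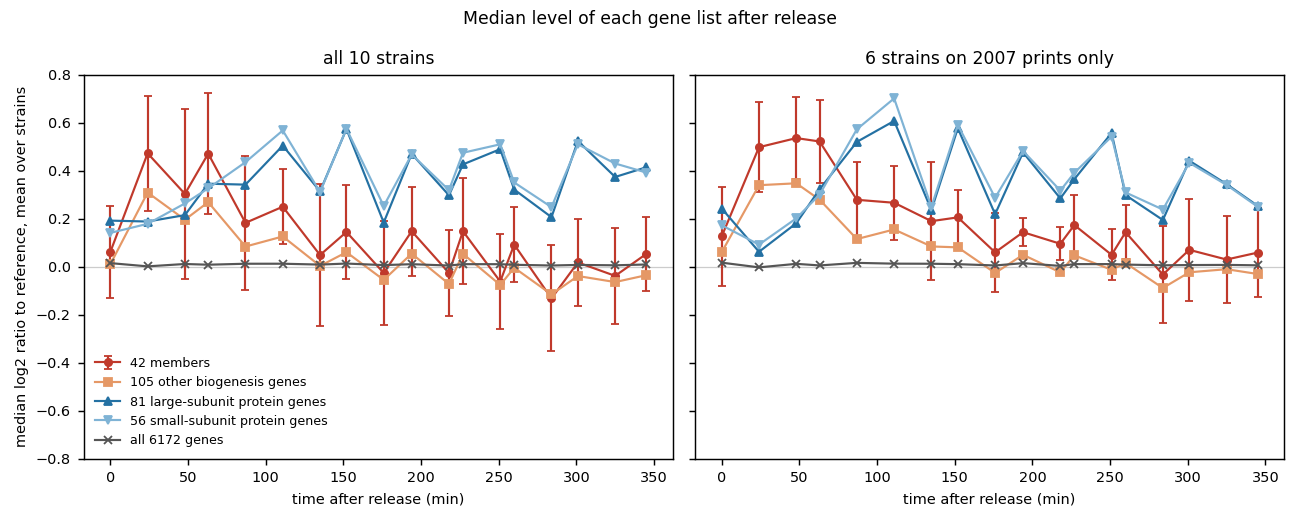
Median log2 ratio of each gene list by time after release, averaged over strains, for all 10 strains (left) and for the 6 strains on 2007 prints only (right); bars on the red points are the SD over strains. The 42 genes stood at 0.47 at 24 min and 0.06 at 0 min over 10 strains, and the ribosomal protein lists did not follow them.

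Within RNA polymerase I the largest change was that of RPA135 (YPR010C), which encodes one of the catalytic core subunits. Its log2 ratio ran from −0.34 through a median of 0.33 to 0.73 at 24 min, against −1.02, −0.54 and −0.05 at 0 min. The increase of RPA135 was 0.72 with an SE of 0.13 over 10 strains (limma, adjusted p = 0.013), with YPS183 at the low end (0.15) and YPS3060 at the high end (1.70). RPA49, which forms with RPA34 a subunit pair particular to this polymerase, ran from −0.38 through 0.53 to 1.02 at 24 min, against −0.54, −0.22 and 0.31 at 0 min. RPA49 rose by 0.61 ± 0.12 in 9 of 10 strains (limma, adjusted p = 0.0167). RPA12, which encodes the RNA cleavage subunit, ran from −0.23 through 0.17 to 0.72, against −0.99, −0.20 and 0.07, and rose by 0.44 ± 0.09 in 10 of 10 strains (limma, adjusted p = 0.0167). The gene for the largest subunit, RPA190, had an estimate close to that of RPA135, 0.69 ± 0.19, with a wider spread, and missed the threshold (limma, adjusted p = 0.057). It was lower at 24 min in YPS2073 (−0.70) and higher in YPS3137 (1.40). RPA34 (0.34) and RPA43 (0.29), which encodes a stalk subunit, were higher in 7 and 9 strains and did not pass. The least change was in RRN3, the initiation factor that brings the polymerase to its promoter, at 0.11 ± 0.08 (adjusted p = 0.453). RPA43 and RPA190 are adjacent genes transcribed away from each other.

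Among snoRNP and nucleolar genes, NOP58, a core protein of C/D box snoRNPs, rose by 0.66 ± 0.13 in 9 of 10 strains (limma, adjusted p = 0.0154). It ran from −0.43 through 0.94 to 1.39 at 24 min, against −0.56, 0.14 and 1.03 at 0 min. Its partner in the same particles, NOP56, had an estimate of 0.03 ± 0.09 (adjusted p = 0.895), with values of −0.36 to 0.40 at 24 min and −0.23 to 0.46 at 0 min. The estimate for NSR1, the yeast nucleolin-like protein, was the highest of the 42 at 0.90 ± 0.30, yet NSR1 missed the threshold (limma, adjusted p = 0.105). Strains disagreed on it: the change was 2.17 in YPS3395 and 2.14 in YPS2073, and −1.23 in YPS183. NOP1, the fibrillarin methyltransferase, also had its lowest change in YPS183 (−1.11), and GAR1, an H/ACA snoRNP protein, had its lowest in YPS3137 (−1.08).

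In the small subunit processome, UTP10 and UTP4 rose. Both belong to the UTP-A subcomplex, which binds the nascent precursor. UTP10 ran from −0.24 through 0.45 to 1.10 at 24 min, against −0.93, −0.24 and 0.14 at 0 min, and its increase was 0.73 with an SE of 0.14 (limma, adjusted p = 0.013). It was higher in 9 of 10 strains, the exception being YPS2073 at −0.13. UTP4 ran from −0.29 through 0.57 to 0.83, against −0.39, −0.05 and 0.24, and rose by 0.53 ± 0.11, again in all strains but YPS2073 (limma, adjusted p = 0.0167). The other UTP-A members among the 42, UTP8, UTP9 and UTP15, had estimates of 0.37, 0.20 and 0.32 that did not pass. The lowest estimate of the 42 belonged to RRP9, a snoRNP protein of the processome, at −0.02 ± 0.10 (adjusted p = 0.94).

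The 7 large subunit genes that rose were NOC2, NUG1, YTM1, NOP2, MRT4, ERB1 and EBP2. EBP2 had the smallest increase (0.30 ± 0.07, limma, adjusted p = 0.0375) and lost its call in 11 of 17 other settings, with an adjusted p of up to 0.137. NOC2, which escorts large subunit precursors out of the nucleolus, ran from 0.18 through 0.85 to 1.21 at 24 min, against −0.75, −0.09 and 0.62 at 0 min. NOC2 rose by 0.77 ± 0.14 in 10 of 10 strains (limma, adjusted p = 0.0119). The GTPase gene NUG1 ran from 0.67 through 0.99 to 1.54, against −0.16, 0.29 and 0.87, and rose by 0.68 ± 0.14 in 10 of 10 strains (limma, adjusted p = 0.0183). ERB1 was the steadiest of the 42 across strains. It ran from −0.09 through 0.64 to 0.84 at 24 min, against −0.40, 0.11 and 0.34 at 0 min, and its change lay between 0.27 in YPS2079 and 0.73 in YPS3137, a rise of 0.47 ± 0.06 (limma, adjusted p = 0.00306). ERB1 acts in a complex with YTM1 and NOP7. YTM1 rose by 0.57 ± 0.11 (limma, adjusted p = 0.0167), with values of −0.38 to 1.21 at 24 min and −0.36 to 0.47 at 0 min, while NOP7 was at 0.05 ± 0.13 (adjusted p = 0.882) and was higher in only 5 of 10 strains. NOP2, an rRNA methyltransferase, ran from −0.06 through 0.92 to 1.17, against −0.12, 0.38 and 0.75, and rose by 0.52 ± 0.11 in 10 of 10 strains (limma, adjusted p = 0.0169), but its estimate at 48 min against 0 min was −0.33, where its level in YPS3137 at 48 min was −3.16. MRT4, an assembly factor related to a ribosomal stalk protein, ran from 0.34 through 1.03 to 1.61, against −0.25, 0.49 and 1.37, and rose by 0.49 ± 0.09 in 10 of 10 strains (limma, adjusted p = 0.013). The helicase gene DBP2 (0.86 ± 0.23, adjusted p = 0.0534) and the GTPase gene NOG1 (0.82 ± 0.24, adjusted p = 0.0738) had larger estimates with more spread and were lower at 24 min in 2 strains each.

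**Figure D2:**
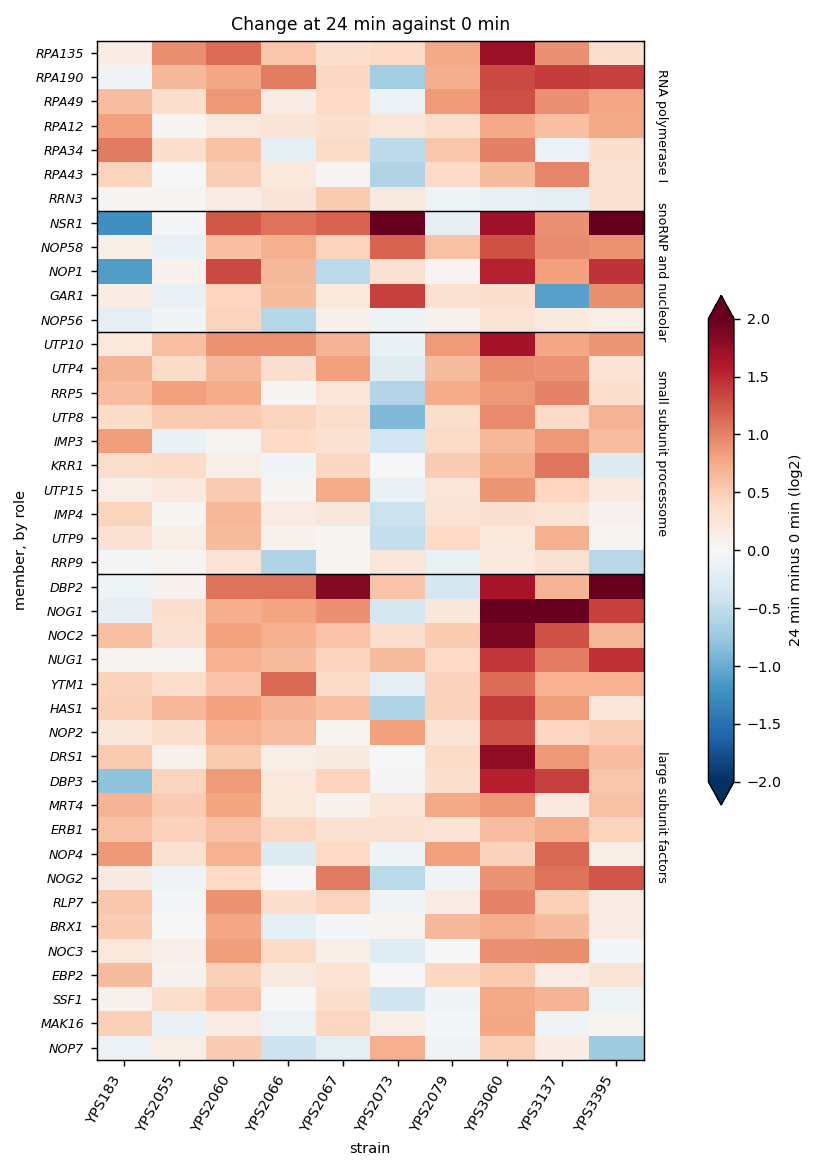
Change at 24 min against 0 min (log2) for each of the 42 genes (down, by role and then by estimate) in each strain (across). Most cells are above 0 (red); YPS2073 has the most cells below 0, and the NSR1 row reaches from −1.23 in YPS183 to 2.17 in YPS3395.

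Strains differed in the size of the rise. The share of the 42 genes that were higher at 24 min was 78.6% or more in 9 strains and 42.9% in YPS2073, while among all genes the share was 43.9% to 53.2%. The median change over the 42 was highest in YPS3060 (0.91) and YPS3137 (0.75), the strains in which 0 min and 24 min samples differed in array print, lay between 0.11 and 0.64 in 7 strains, and was −0.04 in YPS2073. Without YPS3060 and YPS3137 the median was 0.39 and 5 genes passed, where 0.567% of all genes were higher. Without YPS2073, 26 passed, and the share of all genes that were higher was 4.86%. In the 6 strains on 2007 prints only, 12 of the 42 rose, with a median of 0.40, where 1.51% of all genes rose.

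In every strain the 0 min sample belongs to set A and the 24 min sample to set B. Over the whole course the mean of the median level of the 42 genes was higher in set B than in set A in 10 of 10 strains, by 0.02 in YPS3395 to 0.57 in YPS3137, and by 0.02 to 0.23 in the 6 strains on 2007 prints only. The part of the sampling set in the 24 min change was not tested beyond the 48 min samples, which share set A with those at 0 min. At 48 min against 0 min, 3 of the 42 genes rose and 0 fell over 10 strains (RRP5 by 0.55, EBP2 by 0.49 and UTP10 by 0.63; limma, adjusted p = 0.018, 0.043 and 0.0454), where 1.78% of all genes rose and 2.04% fell. At an unadjusted p under 0.05 the counts were 21 higher and 1 lower (limma). RRP5 is a scaffold protein used in both subunits. The median change was negative in YPS3137 (−0.44) and YPS183 (−0.25) and positive in the other 8 strains. The 48 min samples of both used older prints, as did those of YPS2073 (0.17) and YPS3060 (0.48). In the 6 strains on 2007 prints only, 21 of 42 rose at 48 min, with a median of 0.45, where 3.14% of all genes rose. In those 6 strains the average of the median level was 0.13 ± 0.21 at 0 min, 0.50 ± 0.19 at 24 min, 0.54 ± 0.17 at 48 min and 0.52 ± 0.17 at 63 min (SD over strains). The part of the prints in the lower 48 min values of YPS3137 and YPS183 was not tested.

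The next comparison asked how the same genes behaved through the rest of the time course, as means per strain in 3 later windows against the mean of 24 to 63 min. It shares the 24 min samples with the release comparison, so a high 24 min value raises one and lowers the other. The windows mix the sampling sets unequally. In the first, 24 and 63 min are set B and 48 min is set A. In the next, 87 and 135 min are set A and 111 min is set B, and the 42 genes lay higher in set B in 10 of 10 strains. There YPS2067 had only its 135 min sample and YPS2060 only those at 87 and 135 min. The part of the sets in the later differences was not tested beyond the single-set counts given below. More of the 42 genes were lower in each later window. At 87 to 135 min 12 of 42 were lower, where 2.32% of all genes were. At 152 to 227 min 26 were lower, where 5.49% of all genes were, and at 251 to 345 min 34 were lower, where 9.49% of all genes were. None of the 42 was higher in any window at an adjusted or an unadjusted p under 0.05 (limma), where 2.25%, 5.07% and 8.78% of all genes were higher after adjustment. The median change of the 42 was −0.24, −0.36 and −0.43 in time order, and that of all genes was 0.00 in each window. In time order, 3, 8 and 14 of the 42 were lower in 10 of 10 strains, where 1.09%, 1.69% and 3.03% of all genes were. Of the 42, 12 were lower in all 3 windows and 8 in none.

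DBP2, a DEAD-box helicase gene, fell most in each window. Its strain means ran from −0.62 through 0.02 to 0.35 at 251 to 345 min, against 0.48, 1.57 and 1.91 at 24 to 63 min. These ranges do not overlap, and DBP2 fell by 1.44 ± 0.14 in 10 of 10 strains (SE; limma, adjusted p = 0.000587), least in YPS2073 (−0.40) and most in YPS3395 (−2.17). DBP2 was already lower by 0.68 at 87 to 135 min (limma, adjusted p = 0.018) and by 1.25 at 152 to 227 min (adjusted p = 0.00221). NOG1 ran from −0.60 through −0.17 to 0.46, against 0.16, 0.87 and 1.23, and fell by 0.82 ± 0.14 in the last window (limma, adjusted p = 0.00292). It was lower in 9 strains and higher by 0.30 in YPS2073. RPA135 ran from −1.07 through −0.65 to −0.46, against −0.51, 0.08 and 0.43, and fell by 0.77 ± 0.08 in 10 of 10 strains (limma, adjusted p = 0.00075). The late and early ranges of RPA135 overlapped by a small margin, between −0.51 and −0.46.

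By role, the last window had 6 of 7 polymerase genes, 3 of 5 snoRNP genes, 7 of 10 processome genes and 18 of 20 large subunit genes lower. Besides DBP2, the ranges of UTP10 and MAK16 did not overlap. UTP10 ran from −0.70 to 0.05, against 0.08 to 0.78, and fell by 0.70 ± 0.08 (limma, adjusted p = 0.000811). MAK16, which encodes an early large subunit factor, ran from −0.35 to 0.20, against 0.23 to 0.73, and fell by 0.43 ± 0.07 (limma, adjusted p = 0.00199). NOP58 had the next largest fall at 152 to 227 min after DBP2, NOG1 (−0.72) and RPA135 (−0.68), at −0.66 ± 0.09, and was lower in 10 of 10 strains (limma, adjusted p = 0.00332). At 87 to 135 min the next after DBP2 among genes past the threshold were RPA135 (−0.56, adjusted p = 0.0122) and UTP10 (−0.43, adjusted p = 0.0206). The 8 genes that were not lower in the last window were RRN3, NOP56, GAR1, UTP9, RRP9, KRR1, NOG2 and NOP7. GAR1 had the highest estimate, 0.13 ± 0.13, and NOP56 (−0.02), RRP9 (0.01) and NOP7 (0.03) had estimates near 0, as they had at 24 min.

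**Figure D3:**
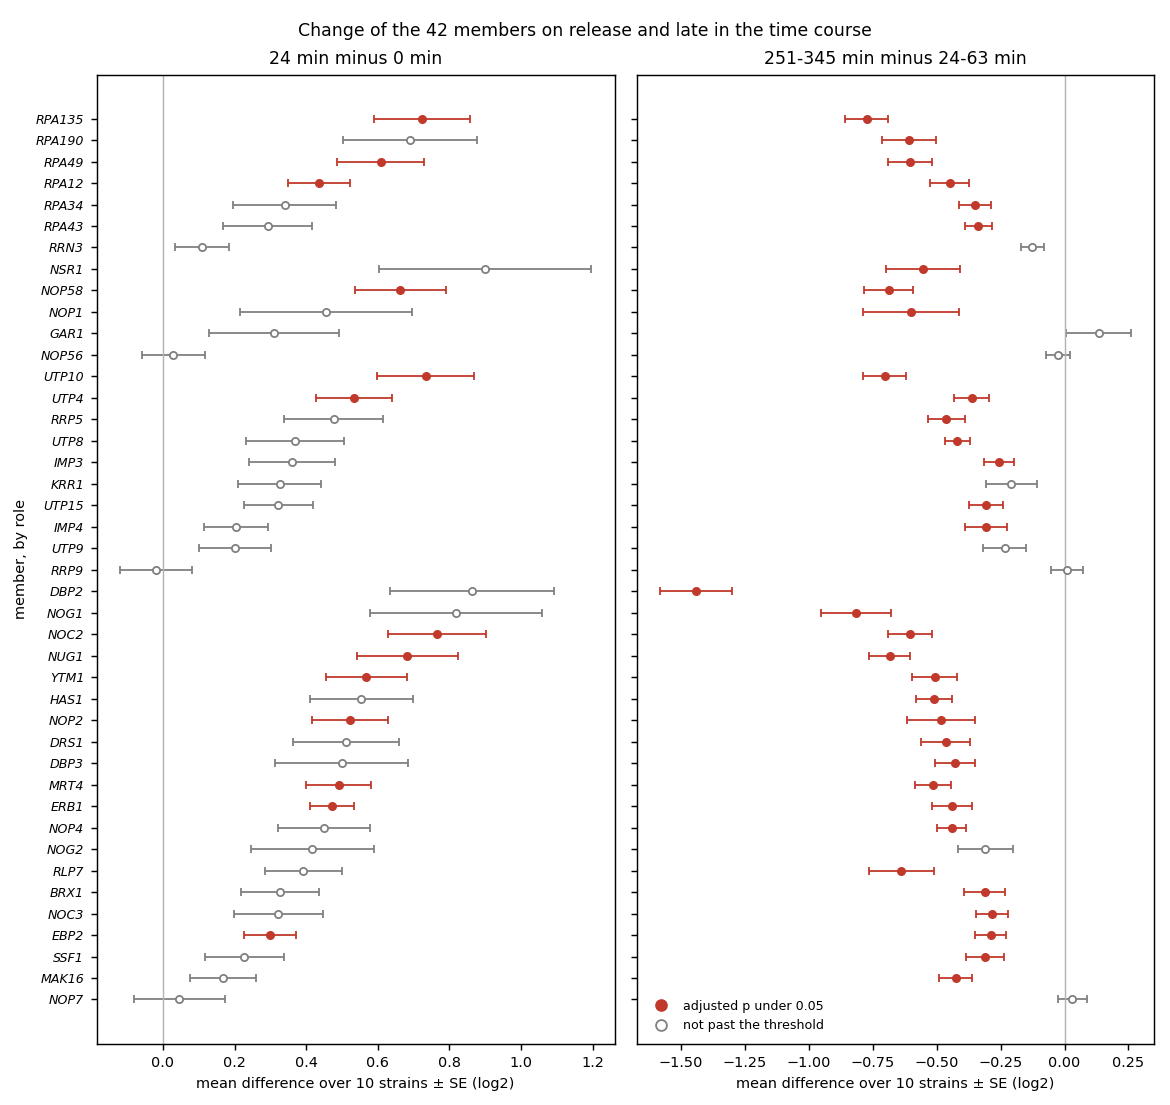
Mean difference over 10 strains with its SE (log2) for each of the 42 genes at 24 min against 0 min (left) and at 251 to 345 min against 24 to 63 min (right). Filled red points pass the adjusted p threshold, 13 on the left and 34 on the right; RRP9, NOP56 and NOP7 lie near 0 in both.

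YPS2073 stood apart here too. Its median late change over the 42 was 0.02, against −0.58 to −0.30 in the other 9 strains, and 21 of the 42 were lower, against 36 to 41 in the others. Without YPS2073, 22, 30 and 36 genes were lower in the 3 windows in time order, and the share of all genes lower was larger too, at 6.21%, 8.28% and 10.2%. Without YPS2079 7 were lower at 87 to 135 min (0.924% of all genes), and without YPS2060 or without YPS2079 17 were lower at 152 to 227 min (2.74% and 2.69% of all genes). The counts differed by sampling set: over set A alone 0, 0 and 4 genes were lower, where 0%, 0% and 0.454% of all genes were, although 12, 25 and 30 of the 42 were lower at an unadjusted p under 0.05. Over set B alone 5, 19 and 34 were lower, where 1.22%, 5.96% and 9.74% of all genes were. Over set A in the 6 strains on 2007 prints only, 4, 10 and 23 were lower, where 1.83%, 1.62% and 2.97% of all genes were.

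Averaged over strains, 24 of the 42 genes had their highest value at 24 min, 12 at 63 min and 1, EBP2, at 48 min. The 48 min mean over 10 strains includes 4 samples on older prints, and in the 6 strains on 2007 prints only the counts were 14 at 24 min, 13 at 48 min and 9 at 63 min. DBP2 averaged 0.72 ± 0.62 at 0 min, 1.58 ± 0.36 at 24 min, 1.32 ± 1.03 at 48 min and 1.40 ± 0.78 at 63 min (SD over 9 or 10 strains). It was at 0.13 ± 0.44 by 176 min and at 0.09 ± 0.32 at 345 min, and at no later time did its mean return to the early level. RPA135 averaged −0.49 ± 0.31 at 0 min, 0.23 ± 0.42 at 24 min and 0.24 ± 0.43 at 63 min, and stayed between −0.85 and −0.32 from 87 min on. Over the whole list no second high point as large as the first was seen: from 135 min on, the mean of the median level lay between −0.13 and 0.15.

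Other lists are given for comparison. Of 105 other ribosome biogenesis genes measured, 22 rose and 0 fell at 24 min against 0 min, with a median of 0.31, and 78 were lower and 0 higher at 251 to 345 min, with a median of −0.34. Of all genes, 2.45% rose and 1.72% fell at 24 min, and 8.78% were higher and 9.49% lower at 251 to 345 min. ARX1, a factor on exported large subunit precursors, had the largest 24 min estimate of these (0.67) and did not pass (limma, adjusted p = 0.198). The next were MDN1, a giant ATPase that removes assembly factors (0.66, adjusted p = 0.013), NSA2 (0.64, adjusted p = 0.0167) and NIP7 (0.63, adjusted p = 0.0167), both large subunit factors. Ribosomal protein genes did not share the course. At 24 min 0 of 81 large subunit protein genes rose or fell (limma; 2 higher and 3 lower at an unadjusted p under 0.05), with a median of −0.02, and 1 of 56 small subunit protein genes rose. At 251 to 345 min 18 of 81 and 13 of 56 were higher and 0 lower, where 8.78% of all genes were higher and 9.49% lower, with medians of 0.19 and 0.17. In YPS2073 the large subunit protein genes were higher at 24 min by a median of 0.87, against −0.49 to 0.23 in the other strains.

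Among 10 regulators of these regulons, 0 passed at 24 min (limma; 0 higher and 1 lower at an unadjusted p under 0.05). SFP1, an activator of biogenesis genes, was at 0.09 (adjusted p = 0.723). DOT6, a repressor that binds their promoters, was at −0.27 (adjusted p = 0.104), and in the last window it was higher by 0.25 ± 0.06 (limma, adjusted p = 0.0155). TOD6, its paralog, was at −0.21 in the last window (adjusted p = 0.0584), the opposite sign. Of 20 general stress genes, 5 fell and 0 rose at 24 min, where 1.72% of all genes fell and 2.45% rose, with a median of −0.31. GPD1, the glycerol synthesis enzyme (−1.42, adjusted p = 0.0287), GLC3 (−1.08, adjusted p = 0.00833), a glycogen enzyme, and TPS2 (−0.91, adjusted p = 0.021), a trehalose enzyme, fell most. Here too the 0 min samples were set A and the 24 min samples set B. The median change of the 20 averaged −0.34 over strains at 24 min, lower in 10. At 48 min against 0 min, both set A, it averaged −0.15, lower in 7 strains and higher in 3. The part of the sampling set and the prints in the stress genes was not tested. In the last window 7 of the 20 were higher and 0 lower, where 8.78% of all genes were higher and 9.49% lower. Whether the stress genes and the 42 biogenesis genes moved for a shared reason was not tested.

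The level of each gene in each strain was then compared with its average in the remaining S. cerevisiae strains, as the fitted mean over 12 times shared by all strains. With 1 culture per strain, these p-values measure how time points scattered about the fitted curve and not a spread between cultures. In YPS2055 13 of the 42 genes were higher and 0 lower, where 3.34% of all genes were higher and 4.8% lower. In YPS2066 13 were higher and 0 lower, where 7.79% and 7.55% of all genes were, and in YPS2079 5 and 0, where 5.15% and 6.69% were. The balance was the other way in YPS3137, with 0 higher and 20 lower, where 16% and 16.8% of all genes were. YPS183 had 0 higher and 14 lower (15.7% and 15.9% of all genes), YPS3060 0 and 10 (6.8% and 6.37%), YPS2067 0 and 4 (3.76% and 3.82%) and YPS2060 0 and 1 (3.11% and 3.13%). YPS2073 had 8 higher and 2 lower (16.5% and 16.4% of all genes), and YPS3395 had 5 higher and 9 lower (20.2% and 19.4%). For the counts of 0, limma gave 0 at an unadjusted p under 0.05 as well. In YPS2073 and YPS3395 the share of the 42 past the threshold was close to that of all genes or below it.

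**Figure D4:**
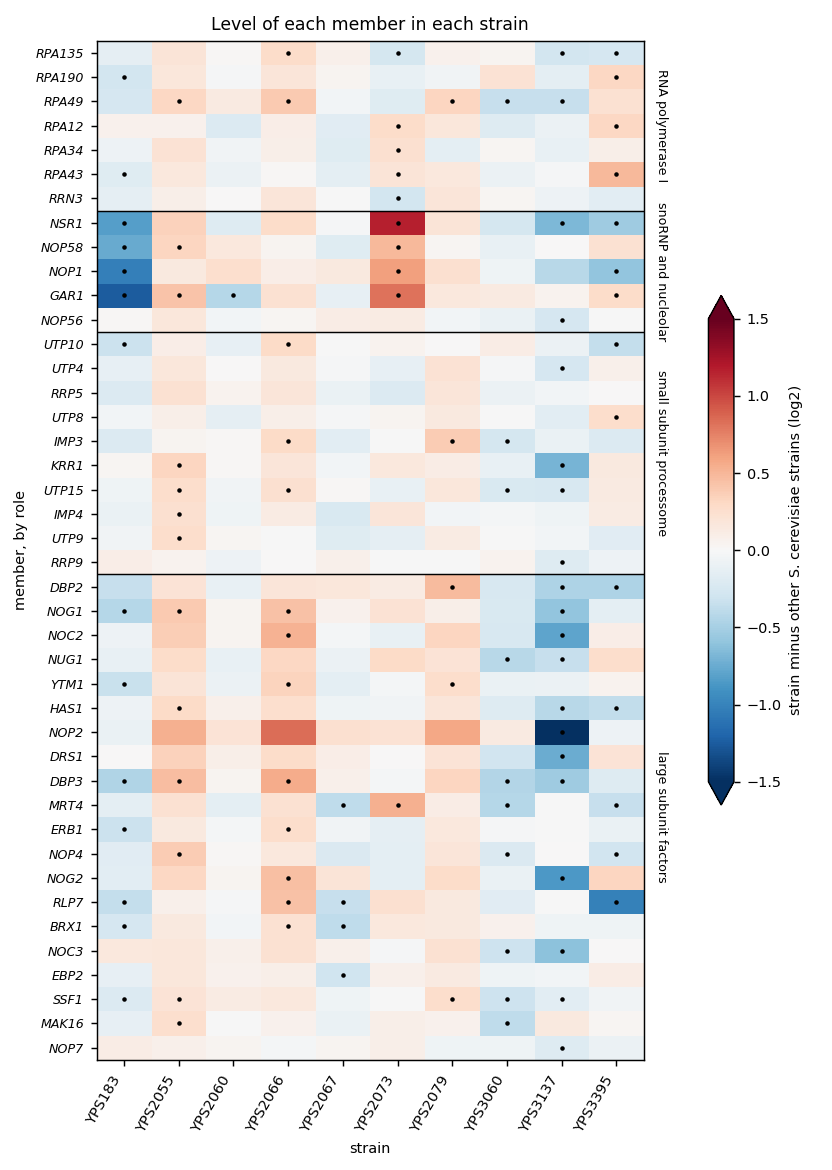
Level of each gene in each strain minus that in the remaining S. cerevisiae strains (log2), over shared times; a dot marks an adjusted p under 0.05. All snoRNP rows except that of NOP56 are low in YPS183 and high in YPS2073, and NOP2 in YPS3137 (−2.64) lies beyond the colour scale.

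Among the snoRNP and nucleolar genes, YPS183 and YPS2073 lay on opposite sides of the other strains. In YPS183, 4 of the 5 were lower (GAR1, NOP1, NSR1 and NOP58), and in YPS2073 the same 4 were higher. NOP56 passed in neither, at 0.02 in YPS183 and 0.12 in YPS2073. GAR1 ran from −0.89 through −0.22 to 0.59 over the 18 YPS183 samples, against −0.24, 0.93 and 3.04 over 137 samples of the other S. cerevisiae strains. Its level in YPS183 was lower by 1.25 ± 0.10 (SE; limma, adjusted p = 3.55e-19), and was lower in both sets, by 1.09 in set A and 1.31 in set B. NOP1 ran from −3.07 through −0.51 to 1.44 in YPS183, against −1.05, 0.71 and 2.20, and was lower by 1.03 ± 0.18 (limma, adjusted p = 3.12e-06). In YPS2073, NSR1 ran from 0.51 through 2.18 to 4.22, against −0.13, 1.50 and 2.49, and was higher by 1.16 ± 0.17 (limma, adjusted p = 3.66e-08). GAR1 ran from 0.48 through 1.36 to 3.04 in YPS2073, against −0.89, 0.84 and 2.07, and was higher by 0.81 ± 0.10 (limma, adjusted p = 1.32e-10). The samples of YPS183 and YPS2073 overlap those of other strains for each of these genes. In YPS2073, with 17 of 18 samples on older prints, strain and print cannot be told apart. There 74 of 81 large subunit and 48 of 56 small subunit protein genes were also higher, where 16.5% of all genes were. RRN3 (−0.28 ± 0.08, limma, adjusted p = 0.00724) and RPA135 (−0.26 ± 0.10, adjusted p = 0.0287) were lower in YPS2073. RRN3 ran from −0.55 through −0.04 to 0.42, against −0.63, 0.31 and 1.36.

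YPS2055 and YPS2066 had higher levels across roles. All 42 estimates were above 0 in YPS2055 and 40 in YPS2066, with medians of 0.21 in each. DBP3, a DEAD-box helicase gene of large subunit assembly, had the largest difference among genes past the threshold in both. NOP2 had a larger estimate that did not pass, 0.53 in YPS2055 (adjusted p = 0.344) and 0.83 in YPS2066 (adjusted p = 0.0624), with the low YPS3137 values among the strains it was set against. DBP3 ran from 0.26 through 0.75 to 1.05 in YPS2055, against −1.34, 0.46 and 1.62 in the others, and was higher by 0.46 ± 0.14 (limma, adjusted p = 0.0249). In YPS2066 DBP3 ran from 0.43 through 0.77 to 1.31, against −1.34, 0.44 and 1.62, and was higher by 0.56 ± 0.14 (limma, adjusted p = 0.00254). The next among genes past the threshold were GAR1 in YPS2055 (0.43 ± 0.10, adjusted p = 0.0023) and NOC2 in YPS2066 (0.52 ± 0.15, adjusted p = 0.0088). Most of the calls came from set A, in which YPS3060 and YPS3137 had older prints: 18 genes were higher in YPS2055 over set A and 1 over set B (5.15% and 1.07% of all genes), and 16 and 2 in YPS2066 (8.31% and 2.48% of all genes). With samples on 2007 prints only, compared among 7 strains, 15 were higher in YPS2055 and 14 in YPS2066, where 6.8% and 7.52% of all genes were.

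The lower levels of YPS3137 and YPS3060 lay in set A. In YPS3137, 26 genes were lower over set A and 0 over set B (medians −0.33 and 0.00), where 23.8% and 2.84% of all genes were lower. In YPS3060 19 and 2 were lower, where 16.2% and 4.96% of all genes were. NOP2 in YPS3137 was the extreme case. At set A times from 48 min on it stood between −6.24 and −3.16, at set B times it stood between −0.11 and 0.88, and at 0 min, a set A time, it was 0.45. The other S. cerevisiae strains held NOP2 between −1.35 and 1.30 over all 139 samples. NOG2, a GTPase gene, ran from −1.81 through −0.66 to 0.74 in YPS3137, against −0.76, 0.46 and 1.38, and was lower by 1.57 in set A and 0.02 in set B. In YPS3060, DBP3 was lower by 0.44 ± 0.14 over both sets (limma, adjusted p = 0.027), by 1.07 in set A, and was higher by 0.11 in set B. MRT4 was lower by 0.43 ± 0.11 in YPS3060 (adjusted p = 0.00575), by 0.67 in set A and 0.37 in set B. In these strains set A and older prints coincide, and sampling set and print cannot be told apart there.

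**Figure D5:**
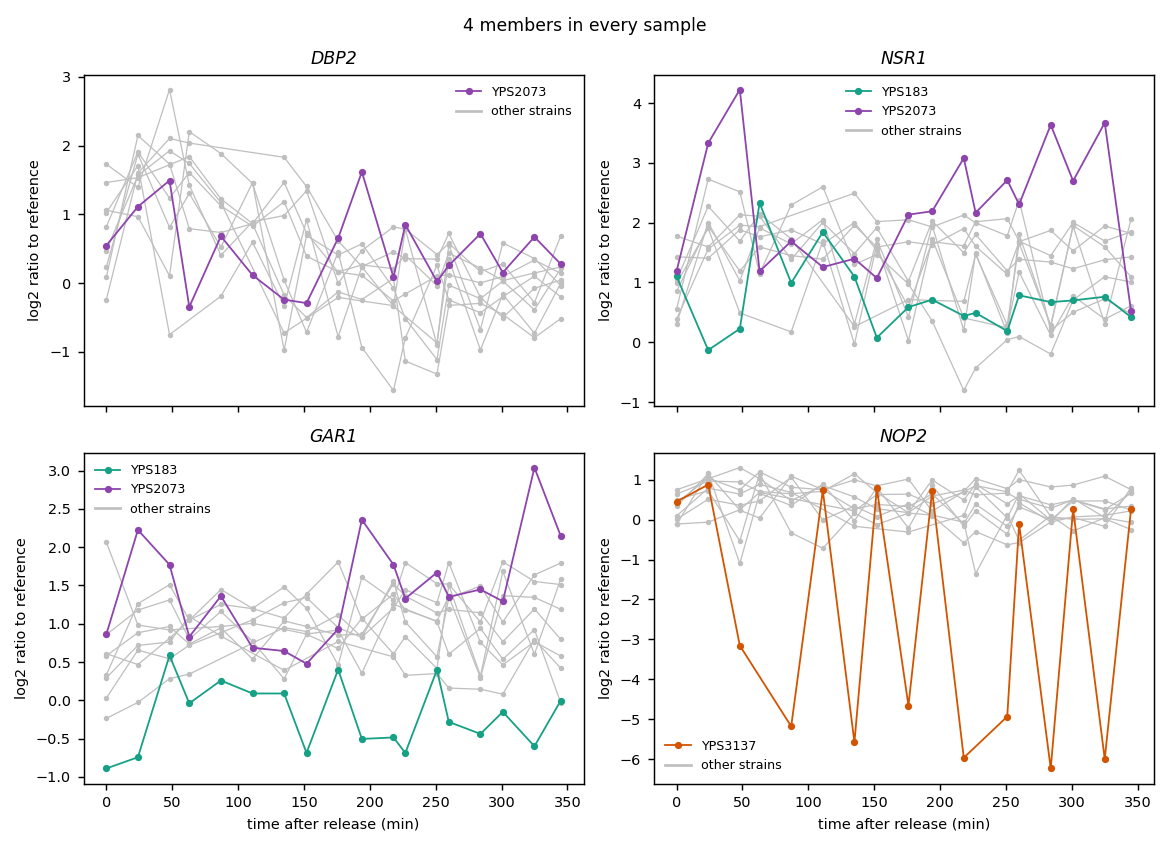
Log2 ratio of DBP2, NSR1, GAR1 and NOP2 in every sample by time after release, with named strains in colour and all other strains in grey. DBP2 falls after the early times in most strains, NSR1 reaches 4.22 in YPS2073 at 48 min, GAR1 is low in YPS183, and NOP2 in YPS3137 alternates between values near 0 and values down to −6.24.

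Smaller differences marked the remaining strains. In YPS2060 GAR1 was lower by 0.43 ± 0.11 (limma, adjusted p = 0.00614), running from 0.08 through 0.42 to 1.10, against −0.89, 0.92 and 3.04. In YPS2067 BRX1, a large subunit factor, was lower by 0.38 ± 0.07 (adjusted p = 0.000405) and MRT4 by 0.38 ± 0.11 (adjusted p = 0.0225). In YPS2079 DBP2 was higher by 0.47 ± 0.16 (adjusted p = 0.0323) and IMP3, a processome protein that works beside IMP4, by 0.38 ± 0.09 (adjusted p = 0.00229). For each of these the samples of the strain overlapped those of the others.

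In the S. paradoxus strain YPS3395, RLP7, a nucleolar protein related to a ribosomal protein, had the largest negative difference from S. cerevisiae. It ran from −0.76 through −0.16 to 0.30, against −1.13, 0.74 and 1.81 over 155 S. cerevisiae samples, and was lower by 1.02 ± 0.11 (SE; limma, adjusted p = 1.22e-13). NOP1 was lower by 0.59 ± 0.18 (adjusted p = 0.00619). Of the polymerase genes, 3 of 7 were higher (RPA43, RPA12 and RPA190) and 1, RPA135, was lower (−0.25, adjusted p = 0.0279). RPA43 ran from −0.37 through 0.05 to 0.37, against −1.84, −0.45 and 0.45, and was higher by 0.49 ± 0.07 (limma, adjusted p = 3.76e-08), and RPA12 was higher by 0.31 ± 0.08 (adjusted p = 0.000615). Set against the spread between the 9 S. cerevisiae strain means, 0 of the 42 genes passed (limma; 3 higher and 1 lower at an unadjusted p under 0.05), where 0.94% of all genes were higher and 1.49% lower. RLP7 averaged −0.28 in YPS3395, against 0.34 to 1.03 in the S. cerevisiae strains, a difference of −0.92 ± 0.23 (adjusted p = 0.07). RPA43 averaged 0.08, against −0.70 to −0.31, a difference of 0.56 ± 0.14 (adjusted p = 0.0729). Both therefore lay outside the range of the 9 strains without passing the test. They were not alone: RPA190, RPA12, UTP8 and NUG1 lay above the range of the 9 strains, and UTP10 and NOP4 lay below it. Whether the probes bind S. paradoxus RNA as they bind that of S. cerevisiae was not tested.

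Last, each strain was tested for variation over time on its own. Genes varying with time numbered 9 of 42 in YPS2067, 6 in YPS3395, 2 each in YPS183, YPS2066 and YPS2073, and 1 in YPS2055 (limma F test of the spline terms, adjusted p under 0.05), where 10.3%, 6.29%, 3.9%, 9.22%, 8.07% and 3.97% of all genes varied. The share of the 42 was 21.4% in YPS2067 and 14.3% in YPS3395. It was 4.76% in each of YPS183, YPS2066 and YPS2073 and 2.38% in YPS2055, close to the share of all genes or below it. YPS2060, YPS2079, YPS3060 and YPS3137 had 0, where 0.194%, 0.583%, 1.8% and 1.78% of all genes varied, and 12, 7, 13 and 2 of the 42 at an unadjusted p under 0.05. DBP2 varied in 4 strains (YPS183, YPS2055, YPS2067 and YPS3395), with fitted ranges of 1.98 to 2.77 and fitted high points between 48 and 87 min. RPA135 varied in YPS183 (range 1.18, high at 63 min; adjusted p = 0.0227) and YPS3395 (range 1.21, high at 48 min; adjusted p = 0.0487). NSR1 varied in YPS2073 and YPS3395 and GAR1 in YPS2067 and YPS2073. With samples on 2007 prints only, in 7 strains, 29 genes varied in YPS2067, 28 in YPS183, 18 in YPS2060 and 17 in YPS3395, where 28.5%, 15.1%, 6.59% and 16.7% of all genes did. There, 16 varied in YPS2066 and 10 each in YPS2055 and YPS2079, where 21.8%, 13% and 4.24% of all genes did, so calls over all genes rose too. Why the counts moved was not tested.

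In 4 strains, 8 courses differed in shape from the average course of the remaining S. cerevisiae strains, with levels removed. They were 2 of 42 genes in YPS2067, 3 in YPS2073, 1 in YPS3137 and 2 in YPS3395, where 3.24%, 9.06%, 0.956% and 4.33% of all genes differed. In YPS2067, YPS2073 and YPS3395 the share of the 42 was thus close to that of all genes or below it. In YPS3137 the count rested on 1 gene. The courses below are given as single genes and not as a trait of the 42. The other strains, YPS183, YPS2055, YPS2060, YPS2066, YPS2079 and YPS3060, had 0 (limma; 1, 0, 2, 2, 0 and 1 at an unadjusted p under 0.05), where 0.859%, 0.0648%, 0.0324%, 2.07%, 0.0648% and 1% of all genes did. RLP7 in YPS2067 stood between 0.36 and 1.43 up to 260 min and between −1.13 and −0.14 from 284 min on, and its fitted course lay furthest below the others at 325 min (−1.22; limma, adjusted p = 0.000308). BRX1 in the same strain deviated by −0.65 at 325 min (adjusted p = 0.0275), with values of −0.99 to −0.30 from 284 min on and −0.04 to 0.40 before.

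The other courses of this kind belonged mostly to snoRNP genes. NOP1 in YPS3395 stood at 1.84 and 1.75 at 24 and 48 min and below 0 at every time from 194 to 325 min (−2.10 to −0.11), and also at 111 min (−2.59). Its fitted course was 1.71 above the others at 48 min (limma, adjusted p = 0.003). NSR1 in the same strain reached 2.73 at 24 min and lay between −0.81 and 0.10 from 218 to 284 min, a deviation of −1.35 at 227 min (adjusted p = 0.0143). In YPS2073 NSR1 was at 3.33 and 4.22 at 24 and 48 min, between 1.07 and 1.69 from 63 to 152 min, and at 3.64 and 3.67 at 284 and 325 min, a deviation of −1.84 at 111 min (adjusted p = 0.0151). GAR1 in YPS2073 deviated by −1.07 at 135 min (adjusted p = 0.00973). UTP9 in YPS2073 deviated by 0.74 at 218 min (adjusted p = 0.0135), where 1 sample, at 194 min, was at 1.45 and the others were between −0.55 and 0.64. GAR1 in YPS3137 was at 2.07 in the 0 min sample, on older prints, and between −0.03 and 1.26 later, a deviation of 1.62 (adjusted p = 0.0409). The part of the prints in the courses of YPS2073 and YPS3137 was not tested.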

How the data were processed

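RNA of 10 strains, in 15 to 18 samples each, was measured on 2-colour arrays against 1 reference RNA. Per the labels, arrays with dye swaps were combined by the authors into 1 normalized log ratio per gene and sample, and the deposited values are treated here as log2. There were 377 arrays in all. The 8 samples on 1 array, among them YPS2066 at 24 min, had no swapped partner. The labels describe no further normalization step. The table also holds 7 columns that correspond to no labelled sample, which were left out. No value was missing, and sample medians over all genes lay between −0.07 and 0.04.

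Values were used as deposited. All tests were run with limma 3.58.1 in R 4.3.3 over all 6172 genes, with p-values adjusted by Benjamini-Hochberg and called under 0.05: differences within strain (24 min minus 0 min, and means of later windows minus that of 24 to 63 min), 1 model with a natural spline of 7 degrees of freedom per strain for levels, variation over time and shape, and YPS3395 against 9 strain means. With 1 culture per strain and time, p-values of single strains reflect scatter between time points only, and the number of arrays limits the precision. In simulated data of 6172 genes, 69% of changes of 0.5 and 99% of changes of 1 were recovered for 24 min minus 0 min.

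All 42 genes are accounted for by role. Values are given for up to 12 genes past the threshold at 24 min, the highest and lowest of each role, the leading genes of each window, up to 2 highest and 2 lowest levels per strain, and the 4 genes that varied in most strains. Other genes named beyond that rule were chosen after their values were seen. The 42 genes, the lists and the tests were chosen with earlier results of these data known. Alternatives were quantile normalization, leaving out strains, single sampling sets, 2007 prints only, other times, other spline terms and a minimum size of 1. Sequences and promoter motifs were not analysed here.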

Additional observations from a re-analysis of the deposited data

Results flagged for a closer look

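Of 33 groups of strain values tested for a strain far from the others, 3 held one. All 3 were YPS2073 in the change at 251 to 345 min against 24 to 63 min. The 3 groups share genes, since the polymerase and large subunit genes are among the 42, so they are not separate results. Its median change was 0.0196 over the 42 genes, against −0.58 to −0.30 in the other 9 strains. It was -9e-04 over the 7 polymerase genes and 0.0479 over the 20 large subunit genes, each the highest of the 10 strains. In this strain 17 of 18 samples used older prints, and their part in the values was not tested.

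The shape of 8 courses differed from that of the remaining S. cerevisiae strains by limma's test of the difference. The adjusted p was 0.000308 for RLP7 and 0.0275 for BRX1 in YPS2067. In YPS2073 it was 0.0151 for NSR1, 0.00973 for GAR1 and 0.0135 for UTP9. It was 0.0409 for GAR1 in YPS3137, and in YPS3395 it was 0.0143 for NSR1 and 0.003 for NOP1.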

How the results depend on the processing

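Of 365 checks of named genes, 317 kept direction and call, 47 kept direction and lost the call, and 1 turned: NOP2 was at −0.33 at 48 min against 0 min. UTP10 kept its call at 24 min in all 17 settings. Of 383 checks of other values, 284 stayed within 1.5 times or the spread between strains and 99 moved. The causes of these moves were not tested, beyond fewer samples where samples were left out. Genes higher on release numbered 3 at 48 min, 21 at 48 min in the 6 strains on 2007 prints only, 22 with the mean of 24, 48 and 63 min, and 5 without YPS3060 and YPS3137. In that order 1.78%, 3.14%, 5.59% and 0.567% of all genes were higher. Leaving out 1 strain gave 12 to 26 higher on release, 7 to 22 lower at 87 to 135 min, 17 to 30 at 152 to 227 min and 31 to 36 at 251 to 345 min, and 0 to 1 higher and 0 to 1 lower in YPS3395 against the strain means. Of all genes, 1.36% to 4.86% were then higher on release. In the windows 0.778% to 6.21%, 2.35% to 8.28% and 6.46% to 10.2% of all genes were lower, in time order. Genes lower in the 3 windows numbered 0, 0 and 4 over set A, 4 and 10 in the first and second over set A in the 6 strains, and 5 in the first over set B. In that order 0%, 0%, 0.454%, 1.83%, 1.62% and 1.22% of all genes were lower.

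Over set A alone, levels moved to 1 higher and 7 lower in YPS183 (14.4% and 12.3% of all genes), 2 and 2 in YPS2060 (8.73% and 7.52%), and 2 and 0 in YPS2067 (3.13% and 1.96%). They moved to 1 and 19 in YPS3060 (18% and 16.2%) and 8 and 4 in YPS3395 (18% and 17.7%), with 1 lower in YPS2079 (11.1%) and 1 higher in YPS3137 (25.1%). Over set B they moved to 4 higher and 8 lower in YPS2073 (13.3% and 13.6% of all genes), 1 and 2 in YPS3060 (3.5% and 4.96%) and 1 and 0 in YPS3137 (2.88% and 2.84%). Higher genes moved to 1 in YPS2055 (1.07%), 2 in YPS2066 (2.48%), 0 in YPS2079 (0.826%) and 2 in YPS3395 (13.9%). Lower genes moved to 9 in YPS183 (10.4%), 9 in YPS2067 (3.56%) and 0 in YPS2060 (0.826%). With a difference of at least 1 required, 2 were lower in YPS183, 1 higher and 0 lower in YPS2073, 1 lower in YPS3137, 0 higher and 1 lower in YPS3395, and 0 in YPS2055, YPS2060, YPS2066, YPS2067, YPS2079 and YPS3060. Quantile normalization gave 0 lower in YPS2060, 7 in YPS2067, 1 in YPS2073 and 9 in YPS3137, where 3.6%, 4.76%, 12.9% and 10.9% of all genes were. With 2007 prints only, 18 were lower in YPS2067 and 18 in YPS3395, where 6.11% and 22.6% of all genes were.

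Genes varying with time numbered, with 2007 prints only, 28 in YPS183, 10 in YPS2055, 18 in YPS2060, 16 in YPS2066, 29 in YPS2067, 10 in YPS2079 and 17 in YPS3395. In that order 15.1%, 13%, 6.59%, 21.8%, 28.5%, 4.24% and 16.7% of all genes varied. After quantile normalization the genes varying numbered 28 in YPS183, 1 in YPS2060, 6 in YPS2066, 0 in YPS2073, 1 in YPS3137 and 11 in YPS3395. The shares of all genes were 21.9%, 0.389%, 5.43%, 2.58%, 1.7% and 14.6%. A spline of 5 degrees of freedom gave 2 in YPS2055, 3 in YPS2060, 4 in YPS2066, 15 in YPS2067, 1 in YPS2073 and 1 in YPS3137. There 5.61%, 0.729%, 11.9%, 15.4%, 9.17% and 3.21% of all genes varied. A term for the alternate times gave 15 in YPS183, 3 in YPS2055, 3 in YPS2060, 5 in YPS2066, 21 in YPS2067, 2 in YPS2079, 10 in YPS3060, 5 in YPS3137 and 12 in YPS3395. With that term 10.1%, 7.7%, 1.36%, 15.1%, 19.1%, 1.91%, 8.46%, 7.66% and 10.5% of all genes varied in these strains. Shapes that differed numbered 3 in YPS183, 24 in YPS2067 and 6 in YPS3395 with 2007 prints only (4.26%, 16.3% and 17.6% of all genes). They numbered 7 in YPS183 and 0 in YPS2073 after quantile normalization (12.6% and 3.63%), and 5 in YPS2067 with 5 degrees of freedom (6.97%). With the term for alternate times they numbered 14 in YPS2067, 9 in YPS2073, 1 in YPS3060 and 6 in YPS3137 (9.8%, 16.2%, 4.63% and 6.82%).

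The labels give no replicate numbers, so samples were paired only by strain. The differences over time compare samples of the same strain, so the strain is already the block in those fits. Signal over background was not analysed here, so what dim probes hide is unknown.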
